A study of Xenopus laevis with 3 samples.

Results

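The subject is the transcript profile of Xenopus laevis gastrulae in which the glycine receptor (GlyR) was expressed and opened with ivermectin (IVM), set against water-injected embryos. Its members are the probe sets that reached a signal of 40 in the GlyR+IVM array or the Control array, 22174 of the 32475 probe sets that are not array controls. Weight is put on the probe sets that were at least 2-fold changed in GlyR+IVM embryos while the second channel construct of the study, DN-KATP, stayed within 1.5-fold of Control. These are called GlyR-selective below, and there were 304 higher and 342 lower, together 2.91% of the members.

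GlyR+IVM embryos received mRNA for the glycine receptor and were kept in ivermectin, as the study's methods state. The label of that array names the construct alone. DN-KATP embryos received mRNA of the construct labelled 666 chimera, a dominant-negative subunit of the ATP-sensitive potassium channel, without the drug. Control embryos were injected with water. Injection is given at the 4-cell stage in the series' description and at the 1-cell stage in the methods. All embryos were frozen at stage 11, in mid-gastrulation, and RNA of 50 embryos was pooled for each of the 3 arrays, 1 per group. There are no replicates, so a difference has no replicate error and no test, and each ratio describes 1 pair of arrays. No array of embryos with the channel but no drug, or with the drug but no channel, was analysed here, so the parts of GlyR and of ivermectin cannot be told apart.

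The glycine receptor is a ligand-gated chloride channel of inhibitory synapses. Ivermectin, an antiparasitic drug, holds it open without glycine. In cells that keep chloride above its equilibrium, the open channel lets chloride out and the membrane depolarizes, while DN-KATP depolarizes by closing a path for potassium. During gastrulation the mesoderm, the endoderm and the neural plate are being set apart, and most tissue-specific structural genes have barely begun to be transcribed.

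After the authors' scaling per array, which bears on the medians, the 3 arrays were alike in their deposited signals. GlyR+IVM had a median of 97.3, DN-KATP 102 and Control 93.3. A signal of 40 was reached by 65.4%, 66.2% and 63.8% of probe sets in the same order. All 19 gastrula marker genes measured, among them tbxt, gsc, vegt, sox17a and sox2, had a signal of at least 100 in every array. Of 8 measured genes of later tissues, 3 reached 100 in every array, and the cardiac actin gene actc1 and the myosin light chain gene myl1 were among them. No probe set that carries the symbol of a glycine receptor subunit was analysed here, so the injected mRNA itself was not checked. As whole embryos were pooled, more cells of a type and more RNA per cell cannot be told apart in any of the values below.

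At least 2-fold higher in GlyR+IVM than in Control were 1109 probe sets, 5.0% of those tested, and at least 2-fold lower were 657, or 2.96%. Both directions together made 7.96%. The median log2 ratio of all 22174 was 0.01, with an interquartile range of -0.26 to 0.31. Among the 1109 higher probe sets, DN-KATP was also at least 2-fold higher at 510 (46.0%), 1.5-fold to 2-fold higher at 245, within 1.5-fold of Control at 304 (27.4%), and more than 1.5-fold lower at 50. The lower ones split differently. DN-KATP was also at least 2-fold lower at 153 of the 657 (23.3%), between the thresholds at 132, within 1.5-fold of Control at 342 (52.1%) and more than 1.5-fold higher at 30. The GlyR-selective probe sets were thus 1.37% of all tested in the higher and 1.54% in the lower direction. Both ratios share the Control array, so a Control signal that is off by itself moves a probe set in both comparisons. The selective rule sets each channel against Control and not against the other channel. A member can therefore lie less than 2-fold from DN-KATP, as pou3f1.L did, with 76.7 in GlyR+IVM, 54.5 in DN-KATP and 37.5 in Control.

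With the roles of the channels exchanged, DN-KATP was at least 2-fold higher at 1264 probe sets (5.66%), of which GlyR+IVM was within 1.5-fold of Control at 410 (32.4%). It was at least 2-fold lower at 594 (2.66%), with GlyR+IVM near Control at 295 (49.7%). The rule gave sets of like size for either channel. Scaling mattered for the balance of directions. Hybridization spike-ins were a median of 1.32-fold brighter in GlyR+IVM than in Control, and with the arrays scaled to them the median log2 ratio of all probe sets shifted by -0.45. Higher probe sets were 62.8% of the 2-fold calls as deposited and 12.8% after that scaling, and 47.1% and 12.19% of the GlyR-selective ones. Directions below are therefore relative to the median probe set.

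**Figure D1:**
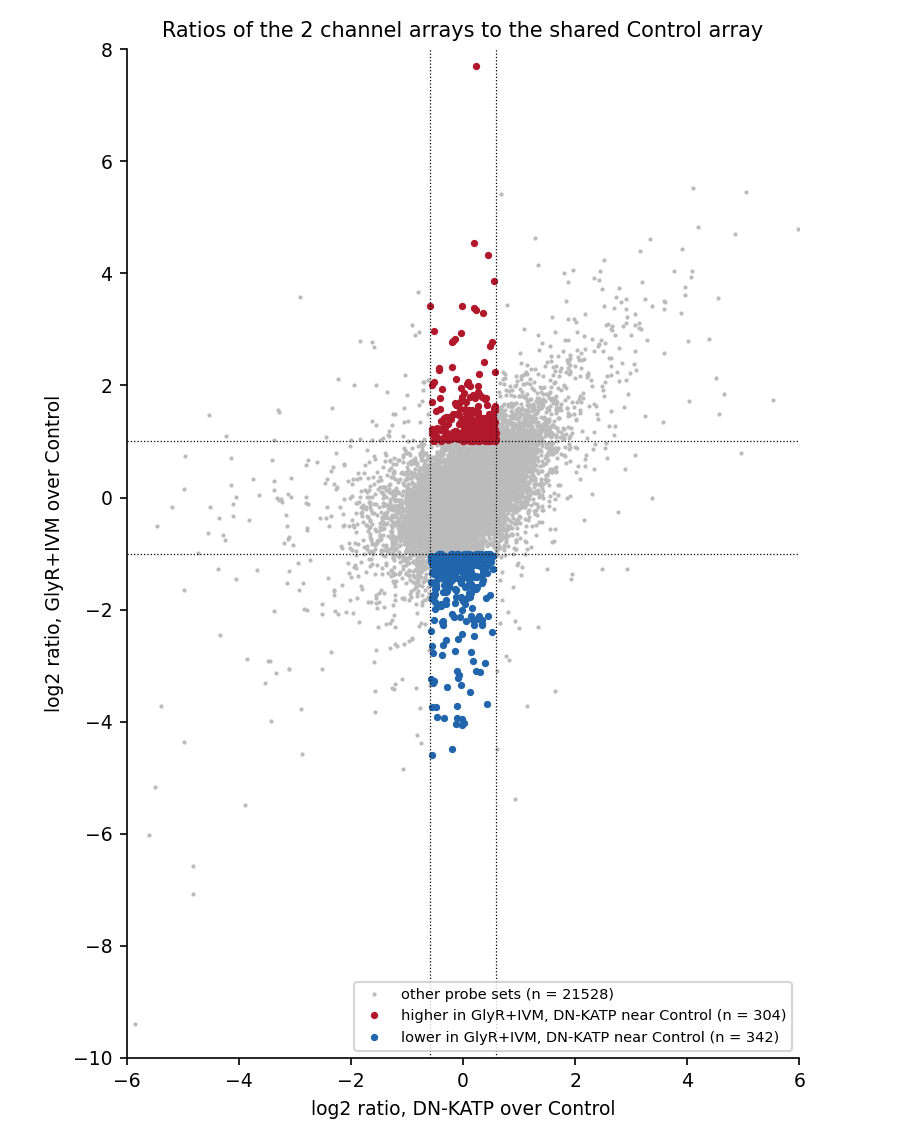
Each point is 1 probe set with a signal of at least 40 in GlyR+IVM or Control, placed by its log2 ratio of DN-KATP over Control (x axis) and of GlyR+IVM over Control (y axis). Dotted lines mark the 2-fold limits of GlyR+IVM and the 1.5-fold limits of DN-KATP. The 304 red and 342 blue points are the GlyR-selective probe sets, and 11 points lie outside the axes.

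The size of the changes depended on signal. Among GlyR-selective probe sets the median change was 2.29-fold in the higher and 2.44-fold in the lower direction, and 52 and 97 passed 3-fold. Control was under 40 at 162 of the 304 higher probe sets, and GlyR+IVM was under 40 at 204 of the 342 lower ones. Of probe sets whose higher signal lay between 40 and 100, 18.0% changed 2-fold and 6.62% were GlyR-selective. Of those at 3000 or more, 1.24% and 0.496% were. The spread of the log2 ratio (SD over probe sets) fell with signal too, being 0.90 in the lowest class and 0.37 in the highest. Just inside the threshold on the higher side, tent5a.L, a poly(A) polymerase, had signals of 723 in GlyR+IVM, 360.4 in DN-KATP and 361 in Control, and gnpda1.S, a glucosamine-phosphate deaminase, had 171, 58.6 and 85.5. Just outside it was mespa.S, a regulator of presomitic mesoderm, with 543, 377 and 272. On the lower side cnot7.S, a deadenylase subunit, lay just inside with 97.8, 146 and 196, and egfl7.L, a secreted endothelial factor, just outside with 82.9, 189 and 166.

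**Figure D2:**
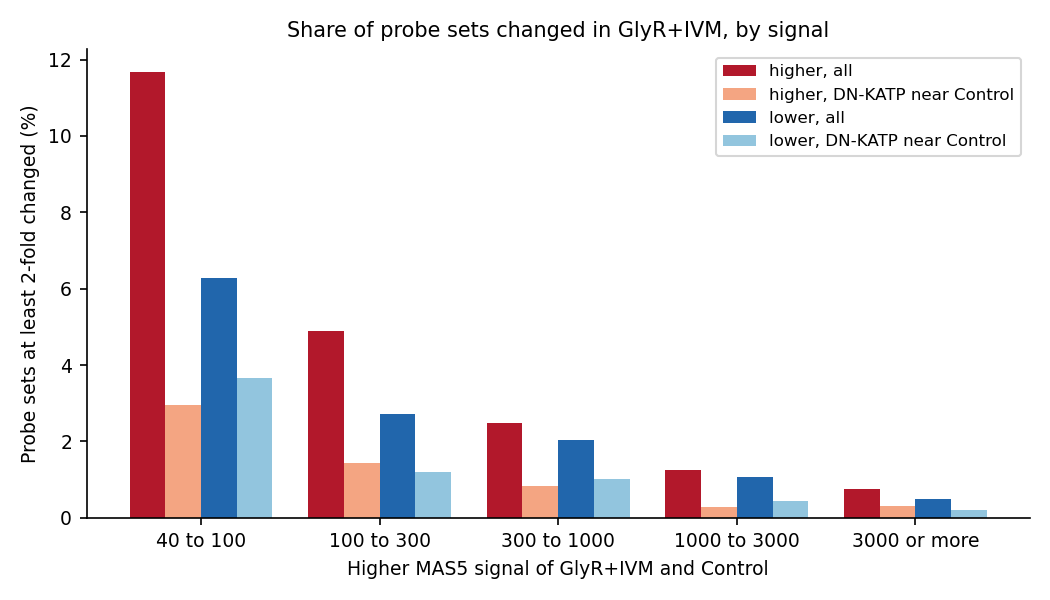
Bars give the share of probe sets at least 2-fold changed in GlyR+IVM against Control (y axis, percent) by the higher MAS5 signal of the pair (x axis), for all changed probe sets and for those with DN-KATP near Control. Shares fall with signal, to 1.24% for both directions together at 3000 or more, against 18.0% between 40 and 100.

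Of the GlyR-selective probe sets, 122 higher and 152 lower ones carry a single informative gene symbol. The largest named increase was at tnks.S (tankyrase, a poly-ADP-ribosyltransferase of telomeres and of the Wnt pathway), with a signal of 127 in GlyR+IVM, 26.3 in DN-KATP and 18.5 in Control, a 6.88-fold increase. The signal peptidase subunit gene sec11c.S followed with 726 in GlyR+IVM, 92.9 in DN-KATP and 106 in Control. The guanylate-binding protein gene gbp1, interferon-induced in mammals, had 595, 89.3 and 119.8 in the same order. All 3 were members by the rule, which asks for DN-KATP near Control.

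Next came dclre1a.L, a nuclease of DNA crosslink repair, with 311 in GlyR+IVM, 78.3 in DN-KATP and 79.8 in Control, a 3.90-fold increase. hsbp1.S, a small protein that binds heat shock factor, had 417, 84.1 and 109. cnpy1.S, a regulator of FGF signaling in zebrafish, had 339, 133 and 99.2. The tetraspanin gene cd81.L was high at 2 of its 3 probe sets, with 431 and 1048 in GlyR+IVM, 167 and 313 in DN-KATP, against 128 and 332 in Control. Of the genes that act at the endoplasmic reticulum, tmbim6.L (Bax inhibitor-1, which guards cells against stress there) had 2634 in GlyR+IVM, 1120.2 in DN-KATP and 834 in Control. The reticulon gene rtn3.L, whose product shapes endoplasmic reticulum tubules, had 239.5, 93.1 and 77.0.

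The other 5 of the 15 largest increases had GlyR+IVM signals under 100, where the spread between arrays was widest. ezr.L (ezrin, which ties membrane to actin), itgb1bp2.L (the muscle chaperone melusin), mecom.L (a zinc finger transcription factor), atp13a1.L (an endoplasmic reticulum P-type ATPase) and gpx3.L (a secreted glutathione peroxidase) lay between 45.2 and 92.6 in GlyR+IVM, and between 11.2 and 31.6 in DN-KATP and 12.23 and 27.2 in Control. Probe sets whose lower signal was under 10 were kept out of both rankings. These were 4 with symbols on the higher side, at 41.1 to 44.2 in GlyR+IVM, and 8 on the lower side, at 41.0 to 73.6 in Control.

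Among GlyR-selective probe sets with an informative symbol and a lower signal of at least 10, the largest decrease exceeded the largest increase. At ca10.L, a carbonic anhydrase-related protein of neural cell surfaces that lacks catalytic activity, GlyR+IVM had a signal of 123, against 1877 in DN-KATP and 1906 in Control. This was a 15.4-fold decrease at a probe set that was well measured in both other arrays, and it is the only probe set of the gene at the floor. nit2.S, an omega-amidase, had 19.3 in GlyR+IVM, 210.2 in DN-KATP and 292 in Control, a 15.2-fold decrease. btg4.S, an adaptor for clearing maternal mRNA in the mouse egg, had 28.6, 158 and 138. strn3.L (striatin 3, a scaffold of protein phosphatase complexes) was low at 2 of 4 probe sets, with 37.8 and 73.3 in GlyR+IVM, 143 and 195 in DN-KATP, against 183 and 193 in Control. The others were not lower, with 741 and 612 in GlyR+IVM, 832 and 704 in DN-KATP, against 715 and 501 in Control.

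anxa1.1.L, an annexin that binds membranes with calcium, had 148 in GlyR+IVM, 517 in DN-KATP and 522 in Control. The syntaxin gene stx19.S had 128, 494 and 479.5, and mtfr1.S, a mitochondrial fission regulator, had 35.9, 109 and 134. These values stand in the plot of the named probe sets. The remaining genes of the 15 largest decreases were ghr.L (the growth hormone receptor), etv3.L (an ETS family repressor), rnf216.L (a ubiquitin ligase), papss2.S (which makes the sulfate donor for proteoglycans), zyx.S (zyxin, of focal adhesions), sgo2.L (shugoshin, which guards centromere cohesion), bix1.2.S (a Mix-type homeobox factor of mesendoderm) and adcy6.S (an adenylyl cyclase). They lay between 10.6 and 19.3 in GlyR+IVM, 38.5 and 88.4 in DN-KATP, against 49.7 and 70.5 in Control.

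**Figure D3:**
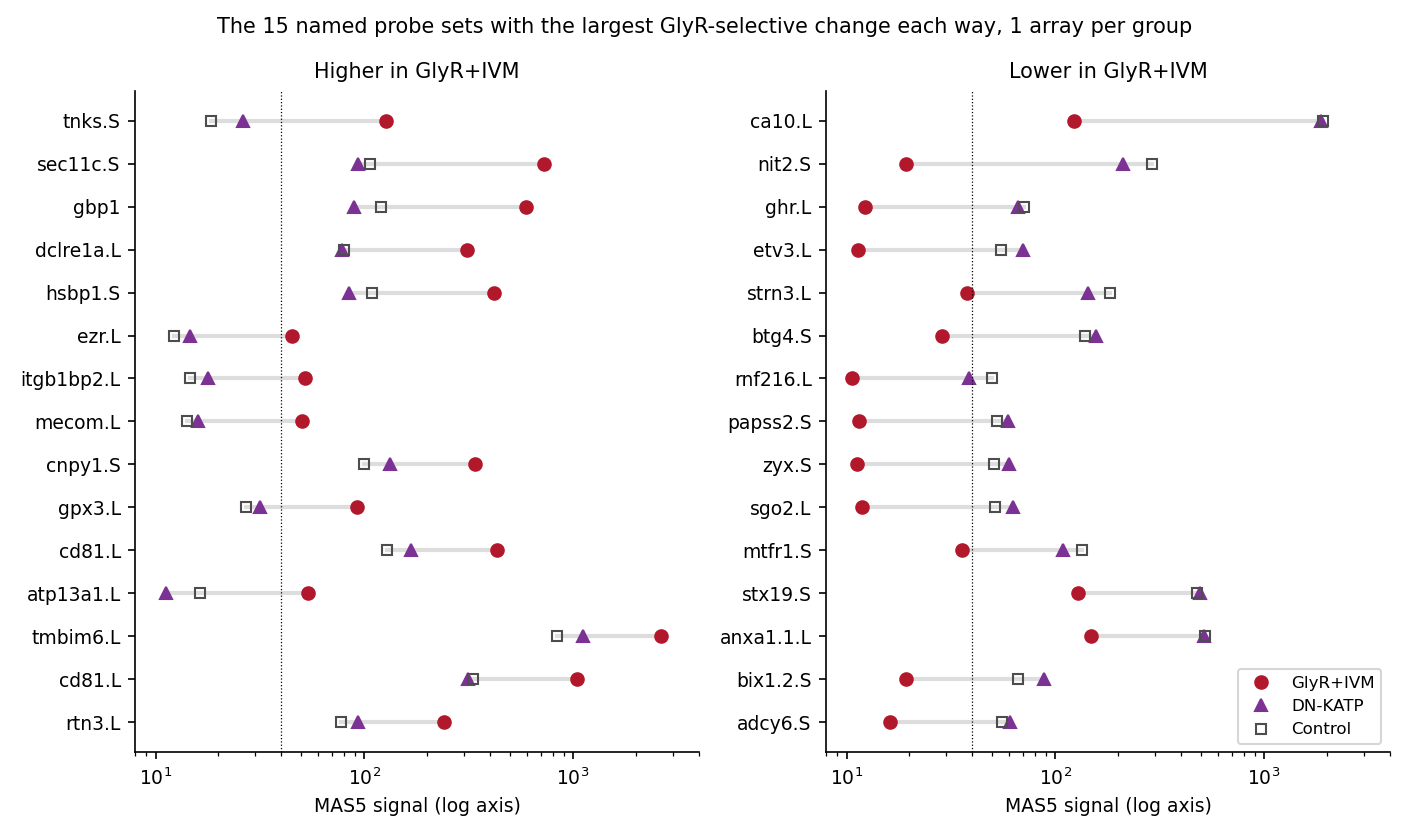
MAS5 signals (x axis, log scale) of the 15 GlyR-selective probe sets with the largest named increase (left) and decrease (right) in GlyR+IVM (circles), DN-KATP (triangles) and Control (open squares), 1 array each, with the floor of 40 dotted. The rule places the triangle near the square and the circle apart in every row, and the gap is widest for ca10.L, at 123 in GlyR+IVM against 1906 in Control.

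At high signal, where the arrays differed least, 16 higher and 19 lower GlyR-selective probe sets reached 1000 in GlyR+IVM or Control. The genes named from here to the end of this paragraph were chosen after their values were seen. dynll1.S, a dynein light chain, had 10722 in GlyR+IVM, 5779 in DN-KATP and 5038 in Control, and a second dynll1.S probe set was 1.57-fold higher in GlyR+IVM. The homeolog dynll1.L was 1.78-fold and 1.84-fold higher at 2 probe sets. sh3bp4.S, an adaptor of endocytosis, had 1132, 3369 and 3034. A second sh3bp4.S probe set from that design, with 14417, 19621 and 18669.8, was only 1.295-fold lower. slc22a5.L, the carnitine transporter, had 1194, 2775 and 2708, and a second probe set of it, with 726, 911 and 1044, was only 1.44-fold lower. azin2.S, an antizyme inhibitor that raises polyamine synthesis, had 1734, 3576 and 3520.4. The trafficking complex subunit trappc5.L, under 1000 in every array, was low at both its probe sets. It had 261 and 339.9 in GlyR+IVM, 906 and 996 in DN-KATP, against 788 and 886 in Control. The largest GlyR-selective ratios stood at probe sets without a symbol. The probe set Xl2.47182.1.S1_s_at had 269 in GlyR+IVM, 1.52 in DN-KATP and 1.29 in Control, and Xl2.47583.1.S1_at had 15.8, 259.5 and 379.

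Many genes have several probe sets on this array, from one transcript cluster, from another cluster with the same symbol, or from the other homeolog (X. laevis is allotetraploid and keeps L and S copies of many genes). These other probe sets are the nearest the design has to a second reading, although they come from the same RNA. Some were themselves chosen by the rule. Beside the higher GlyR-selective probe sets, 29 others lay in the same cluster, of which 6 were members too. Of the 23 that were not, 14 were above 0 on the log2 scale (60.9%), with a median log2 ratio of 0.11. Of 50 non-members in another cluster, 30 were above 0, with a median also of 0.11. Of 38 of the other homeolog, none of them a member, 31 were above 0 (81.6%), with a median of 0.42. Over all genes with several probe sets these shares were 51.7%, 51.8% and 47.8%. At least 2-fold higher were 2, 5 and 4 non-members, where the shares over all were 2.75%, 4.07% and 2.89%. By the rule, a non-member past 2-fold has DN-KATP more than 1.5-fold from Control, so these counts cannot show a GlyR-selective change repeating.

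Beside the lower ones, 46 others lay in the same cluster, of which 9 were members. Of the 37 that were not, 25 were below 0 (67.6%, against 48.3% over all), with a median of -0.31. Of 53 non-members in another cluster, 27 were below 0 (50.9%, against 48.2%), with a median of -0.02. For the other homeolog it was 29 of 49 (59.2%, against 52.2%), with a median of -0.08. At least 2-fold lower were 2, 3 and 1 non-members, where the shares over all were 2.12%, 2.64% and 2.30%. At these too DN-KATP was, by the rule, more than 1.5-fold from Control.

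**Figure D4:**
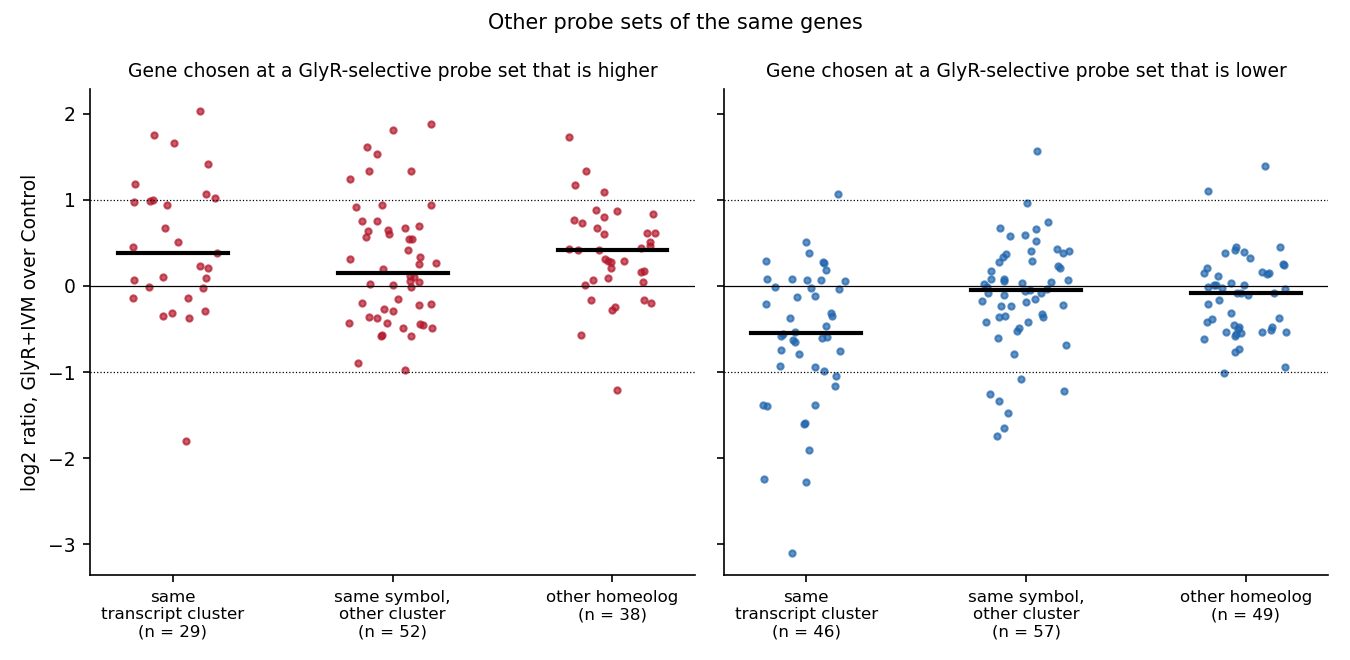
Log2 ratio of GlyR+IVM over Control (y axis) at the other probe sets of genes with a GlyR-selective probe set, by their relation to it (x axis), with the median as a bar. Probe sets that are themselves GlyR-selective are included, and with them the medians for higher genes are 0.39, 0.15 and 0.42, and for lower genes they are -0.55, -0.05 and -0.08.

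Several of the top genes did not repeat at a second probe set. For tnks.S, the largest named increase, a probe set from another cluster was little changed by GlyR+IVM (log2 ratio 0.27). DN-KATP was the higher channel there (0.73). A second sec11c.S probe set had 513 in GlyR+IVM, 546 in DN-KATP and 449 in Control, and a second one for tmbim6.L had 1947, 1795 and 1834. The cd81.S homeolog was lower, with 795, 912 and 1836. Other rtn3 probe sets of the same cluster had log2 ratios of -0.38 and -0.29 in GlyR+IVM, and the other homeolog had 0.42. Of other atp13a1.L probe sets, one had -0.43, and one was higher in both channels, with 1.81 in GlyR+IVM and 1.67 in DN-KATP. Of the decreases, zyx.S had a second probe set that was lower by less, with 776, 843 and 1072. The anxa1.1.S homeolog had 1478, 1043 and 1079.8. stx19 went both ways, since 3 probe sets of 1 cluster were at least 2-fold lower and 2 others were at least 2-fold higher in GlyR+IVM and in DN-KATP. Some increases went the same way at other probe sets, each by less than 2-fold. dclre1a.L was 1.69-fold and 1.97-fold higher at its other 2 probe sets, with DN-KATP under Control in both. The latter comes from the same design as the member. A second gbp1 probe set had 283, 82.6 and 162, so that DN-KATP was more than 1.5-fold under Control, and hsbp1.L was 1.60-fold higher.

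Of 2804 genes with at least 2 probe sets at the floor, 26 had 2 or more at least 2-fold higher in GlyR+IVM and 17 had 2 or more at least 2-fold lower. The probe sets came from different clusters in 20 and 8 of them. Among the higher genes, actc1.L, cd81.L, ndufaf2.L (an assembly factor of respiratory complex I) and rtn1.S had 2 GlyR-selective probe sets each. The reticulon gene rtn1.S had 3 probe sets past 2-fold, all from 1 cluster, with 210.4, 210.5 and 101 in GlyR+IVM, 72.5, 53.2 and 41.6 in DN-KATP, against 92.3, 105 and 48.2 in Control. Among the lower genes, ppt1.S (a lysosomal thioesterase) had 2 of 4 probe sets at least 2-fold lower, from different clusters, with 311 and 192 in GlyR+IVM, 609.7 and 350.1 in DN-KATP, against 744 and 447 in Control. Its other homeolog was not lower in GlyR+IVM, with log2 ratios of 0.16 and 0.38. rest.L, a repressor of neuronal genes, had 6.96 and 18.9 in GlyR+IVM, 70.8 and 53.6 in DN-KATP, against 59.9 and 42.2 in Control, but its homeolog rest.S had 1014, 1148 and 1170.2.

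Several muscle and heart genes stood among the higher ones. A list of such genes, and the 3 lists that follow it, were put together after the values were seen, so their counts and medians only describe them. Of 59 probe sets at the floor for muscle and myogenic genes, 18 (30.5%) were at least 2-fold higher and 3 lower, beside 5.0% and 2.96% of all probe sets. The median log2 ratio was 0.51 in GlyR+IVM, against 0.31 in DN-KATP, and 48 of 59 were above 0. With the arrays scaled to the hybridization spike-ins the median over Control was 0.02. The list is of low signal, with a Control median of 72.5. In 11 of the 18 Control was under 40, so these entered only through GlyR+IVM, and of all probe sets with a higher signal between 40 and 100, 11.7% were at least 2-fold higher.

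Among contractile proteins, the cardiac actin gene actc1.L had 6311 and 2361 in GlyR+IVM at its 2 probe sets, 3847 and 1386 in DN-KATP, and 2672 and 939 in Control. Both were GlyR-selective, although DN-KATP lay above Control at each. The myosin light chain gene myl1.S had 417 in GlyR+IVM, 195 in DN-KATP and 163 in Control, and its homeolog myl1.L had 2115, 973 and 1553. The fast troponin C gene tnnc2 had 77.5, 40.4 and 29.8 for the L homeolog, and 60.1, 41.0 and 23.8 for the S homeolog. In all of these GlyR+IVM was the highest array.

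The fast myosin heavy chain gene myh4.L had 79.8 in GlyR+IVM, 53.5 in DN-KATP and 15.99 in Control, and mylpf.L, a fast myosin light chain, had 132, 68.7 and 43.4. The cardiac myosin gene myh6.S was 3.67-fold, 2.24-fold and 1.92-fold higher at 3 probe sets. Of regulators, the muscle methyltransferase gene smyd1.L had 199.9 in GlyR+IVM, 123 in DN-KATP and 72.5 in Control. The heart field gene nkx2-5.S had 163 and 95.5 in GlyR+IVM, 92.7 and 73.8 in DN-KATP, against 55.4 and 47.5 in Control. At these DN-KATP lay between the other arrays.

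The determination genes of skeletal muscle were less than 1.5-fold apart from Control. myod1 had 407 and 741 in GlyR+IVM, 485 and 491 in DN-KATP, against 398 and 657 in Control for its L and S homeologs. myf5.L had 1829.6, 1430.1 and 1778. The lower members were unc45b.S, a myosin chaperone, with 14.8, 195 and 111, casq2.S, a calcium store protein, with 13.2, 76.1 and 47.2, and fhl1.S with 0.902, 2.73 and 40.4. Creatine kinase, ckm.L, was 2.28-fold, 1.98-fold and 1.46-fold higher at 3 probe sets, and DN-KATP was under Control at each.

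The next list held regional genes of the anterior neural plate, eye field and placodes. Of 74 probe sets, 7 (9.46%) were at least 2-fold lower in GlyR+IVM and 3 (4.05%) higher, beside 2.96% and 5.0% of all probe sets. Of the lower ones, emx1.S, eya1.L and a rax.S probe set entered only through Control. They had 17.7, 7.38 and 31.3 in GlyR+IVM, against 41.4, 50.3 and 65.3 in Control. At emx1.S DN-KATP was low too, with 19.7. Of the 7, 5 were GlyR-selective, as were 2 of the 3 higher, beside 52.1% of all lower and 27.4% of all higher probe sets. Those 2 were sall2.L, with 102 in GlyR+IVM, 38.4 in DN-KATP and 38.6 in Control, and pou3f1.L, with 76.7, 54.5 and 37.5. The other was pax2.L, with 146, 122 and 71.0. In GlyR+IVM the median log2 ratio of the list was -0.11, and DN-KATP had 0.09. GlyR+IVM exceeded DN-KATP at 16 of 74 (21.6%, beside 48.4% of all probe sets). The median log2 ratio between them was -0.22, beside -0.02 over all, on genes picked with these values known. With no floor the median over Control was 0.01.

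otx1.L, a head patterning homeobox gene, had 1682 in GlyR+IVM, 3209 in DN-KATP and 3401 in Control. hesx1, a repressor of the anterior neural border, had 119, 263 and 262 for the S homeolog and 837, 1486 and 1286 for the L homeolog. The retinoic acid-degrading enzyme gene cyp26c1.S had 454 and 286 in GlyR+IVM, 912 and 687 in DN-KATP, against 1521 and 647 in Control, with one more, weak probe set at 58.7, 59.5 and 75.5. For otx1.L and hesx1.S the DN-KATP and Control arrays were nearly equal.

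Below the 2-fold threshold but in the same direction were fezf2.L, of the forebrain, with 312, 667 and 528, and zic1.S, of the neural plate border, with 3697 and 6963 in GlyR+IVM, 6604 and 11048 in DN-KATP, against 6231 and 9506 in Control. The eye field gene rax was mixed, with 31.3, 54.5 and 65.3 at one rax.S probe set and 67.1, 155 and 49.0 at rax.L. The eye gene pax6.L was higher in both channels, with 1324, 1619 and 664, and the pan-neural gene sox2.L had 4476, 5085 and 3788. Of the 103 probe sets of the wider neural plate and neural crest list, 6 were at least 2-fold higher and 4 lower (5.83% and 3.88%), near the shares of all probe sets.

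**Figure D5:**
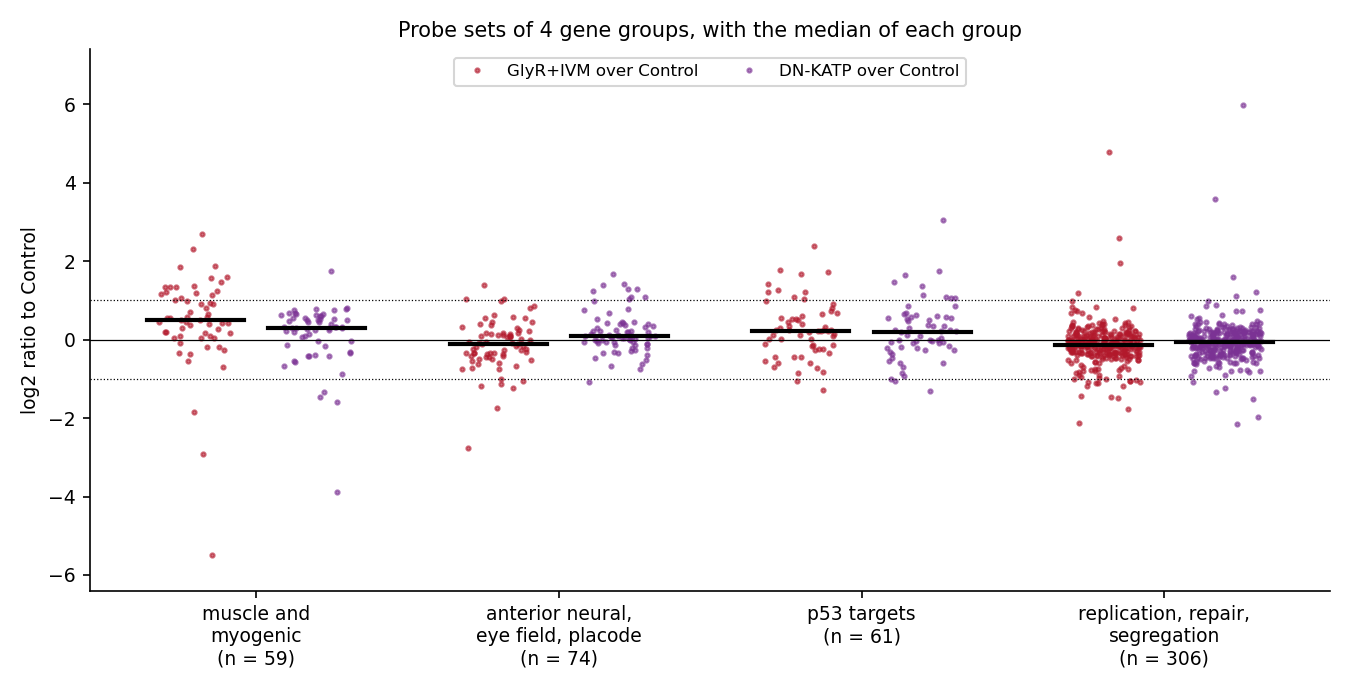
Log2 ratio to Control (y axis) of each probe set at the floor in 4 gene groups (x axis), for GlyR+IVM (left of each pair) and DN-KATP (right), with group medians as bars and the 2-fold limits dotted. Medians in GlyR+IVM are 0.51, -0.11, 0.23 and -0.14, and in DN-KATP 0.31, 0.09, 0.20 and -0.07.

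The third such list held targets of p53, the transcription factor of DNA damage and other stress. Of 61 probe sets, 10 (16.4%, beside 5.0% of all) were at least 2-fold higher in GlyR+IVM and 2 lower. Control was under 40 at 3 of the 10. GlyR-selective was 1 of the 10, beside 27.4% of all higher probe sets. In DN-KATP 9 were at least 2-fold higher, beside 5.66% of all. Above 0 were 41 of 61 in GlyR+IVM. The list's median log2 ratio came to 0.23 in GlyR+IVM, with 0.20 in DN-KATP, and after scaling to the hybridization spike-ins it was -0.21 in GlyR+IVM. The cyclin G gene ccng1 had 3520.3, 309 and 548 in GlyR+IVM at 3 probe sets, 2738, 407 and 579 in DN-KATP, and 1520.4, 129.6 and 172 in Control. sesn1.L, a stress-induced inhibitor of growth signaling, had 97.9 and 92.1 in GlyR+IVM, 81.4 and 92.9 in DN-KATP, against 36.8 and 43.4 in Control. gpx3.S had 606, 471 and 183, while gpx3.L was one of the GlyR-selective probe sets. The proapoptotic gene bax.S was lower, with 617 in GlyR+IVM, 836 in DN-KATP and 1508 in Control.

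The last of these lists held genes of DNA replication, repair and chromosome segregation. Of 306 probe sets, 16 (5.23%) were at least 2-fold lower and 4 (1.31%) higher, beside 2.96% and 5.0% of all. Among the 16, sgo2.L, ercc3.L, fancd2.L and a chaf1b.L probe set entered only through Control, with 11.9, 18.9, 31.8 and 25.3 in GlyR+IVM. GlyR-selective were 14 of the 16, beside 52.1% of all lower probe sets. GlyR+IVM had a median log2 ratio of -0.14, DN-KATP one of -0.07, and 102 of 306 (33.3%) were above 0 in GlyR+IVM, beside 51.5% of all probe sets. The replicative helicase gene mcm4.S had 601 in GlyR+IVM, 926 in DN-KATP and 1213 in Control. pold2.L, a DNA polymerase delta subunit, had 279, 484 and 594, and timeless.L, of the fork protection complex, had 115, 175 and 239. In these 3 DN-KATP lay between GlyR+IVM and Control. At the homeolog mcm4.L, with 2267, 1978 and 2966, DN-KATP was the lowest array.

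The chromatin assembly gene chaf1b.L was 2.79-fold and 2.11-fold lower in GlyR+IVM at 2 probe sets and 1.28-fold lower at another. DN-KATP was also under Control at each, by 1.39-fold, 1.49-fold and 1.65-fold in the same order. Survivin, birc5.S, which acts in chromosome segregation and against apoptosis, had 866 and 492 in GlyR+IVM, 1904 and 739.7 in DN-KATP, against 2951 and 1123 in Control. Its homeolog birc5.L had 375, 295 and 554, with DN-KATP the lowest. Among the 4 higher ones, the ribonucleotide reductase gene rrm2.1.L had 5853 in GlyR+IVM, 13298 in DN-KATP and 211 in Control.

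The 21 other lists began with those for the channels themselves. None of 36 probe sets for chloride channels and transporters was 2-fold changed (median log2 ratio -0.02). Of the list of glycine and GABA receptors and their partners only 2 reached the floor, and gephyrin, gphn.L, which anchors glycine receptors at synapses, had 579.6, 615 and 555. Of 9 probe sets for serotonin, dopamine and pigment cell signaling none was 2-fold changed. Potassium channel and sodium pump genes had 2 higher and 1 lower of 18 (11.1% and 5.56%, beside 5.0% and 2.96% of all probe sets), among them kcnip4.L, a potassium channel partner, with 218, 158 and 94.9. Calcium genes had 2 higher and 2 lower of 78, or 2.56% each. In both of these lists Control was under 40 at 1 of the 2 higher probe sets.

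Immediate-early genes, which answer growth factors and stress within minutes, had 6 of 77 probe sets at least 2-fold higher (7.79%, beside 5.0% of all) and 0 lower. Their median log2 ratio was 0.31 in GlyR+IVM, against 0.29 in DN-KATP. Control was under 40 at 3 of the 6 higher probe sets. Higher in both channels were the AP-1 genes junb, with 170.0 and 108 in GlyR+IVM, 792 and 78.5 in DN-KATP, against 66.9 and 20.9 in Control for its L and S homeologs, and jun.L, with 68.1, 152 and 32.8. GlyR-selective were mycn.S, a growth-promoting transcription factor of the Myc family, with 334, 122 and 118, and jund.S with 133, 93.2 and 63.0. A mycn.L probe set had 247, 105 and 125, and a second, weak mycn.S probe set had 41.0, 42.5 and 33.0. With scaling to the hybridization spike-ins the median of the list was -0.12.

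The germ layer lists were higher as lists with few 2-fold members. Mesoderm genes had a median log2 ratio of 0.24 in GlyR+IVM, against 0.22 in DN-KATP, with 7 of 82 probe sets at least 2-fold higher (8.54%, beside 5.0% of all), and nkx2-5.S and actc1.L gave 4 of the 7. Among the others was pcdh8.L, paraxial protocadherin of convergent extension, with 179, 102 and 51.1. Endoderm genes had a median of 0.27 in GlyR+IVM, as in DN-KATP, with none of 44 higher and sox7.L lower, with 83.7, 310.2 and 168. After scaling to the hybridization spike-ins the medians of both lists were below 0, -0.19 for mesoderm and -0.16 for endoderm.

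Of the signaling and stress lists, BMP, nodal and TGF-beta signaling had 6 higher and 1 lower of 97 probe sets (6.19% and 1.03%), and FGF, EGF, IGF and MAPK signaling 6 and 2 of 105 (5.71% and 1.90%). Heat shock and the unfolded protein response had 5 and 1 of 72 (6.94% and 1.39%), and drug metabolism 4 and 1 of 47 (8.51% and 2.13%). The shares of all probe sets were 5.0% higher and 2.96% lower. Control was under 40 at 3 of the 6 higher probe sets of the BMP list and 4 of the 6 of the FGF list. It was so at 1 of the 5 for heat shock and 3 of the 4 for drug metabolism. These entered only through GlyR+IVM. bmp2.L, a BMP ligand, had 669 and 263 in GlyR+IVM, 347 and 166 in DN-KATP, against 164 and 113 in Control. igf3.L, an insulin-like growth factor of amphibians and fish, had 257, 126 and 108. Of the unfolded protein response, the stress-induced factor ddit3.L (CHOP) was higher, with 124, 65.0 and 55.1, while the chaperone gene hspa5.L (BiP) was lower, with 481, 849 and 1054 at one probe set and 1229.9, 1773 and 2068 at another. Its homeolog hspa5.S had 1134, 929.8 and 1122. The glutathione transferase gene gstt1.L, among drug-metabolizing enzymes, had 1974 in GlyR+IVM, 358 in DN-KATP and 597 in Control. Its DN-KATP signal was 0.600 of Control's, outside the limit for a GlyR-selective change.

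Epidermal and ciliated cell genes had a median log2 ratio of 0.13 in GlyR+IVM, against 0.35 in DN-KATP, with 6 and 15 of 98 probe sets at least 2-fold higher, where 5.0% and 5.66% of all probe sets were. The list of BMP, nodal and TGF-beta signaling had medians of 0.08 and 0.24. GlyR+IVM exceeded DN-KATP at 31 of its 97 probe sets (32%, beside 48.4% of all probe sets).

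Interferon and innate immunity genes had 10 higher and 5 lower of 58 probe sets (17.2% and 8.62%), beside 5.0% and 2.96% of all and 11.7% and 6.28% of those with a higher signal between 40 and 100. The median log2 ratio was 0.02 and the Control median 129, and in 8 of the 10 Control was under 40. Of these, 5 higher and 2 lower ones were GlyR-selective, among them the interferon regulatory factors irf1.L, with 78.2, 49.9 and 35.1, and irf2.L, with 46.3, 29.6 and 20.7, and the kinase gene jak1.S, with 63.4, 189 and 177. Other jak1 probe sets had log2 ratios of -0.93, -0.06 and 0.08 in GlyR+IVM, and 0.59, 0.75 and 1.05 in DN-KATP. The other lower GlyR-selective one was b2m.S, with 95.0, 152 and 199. A second b2m.S probe set of the same cluster was counted as higher, with 133, 96.0 and 63.5. Maternal transcripts had 1 higher and 3 lower of 89 (1.12% and 3.37%), the lower ones btg4.S, dand5.S and wee2.S. Of 31 probe sets for reference genes, 1 was changed, gpi.S of glycolysis, with 346, 728 and 724, and their median log2 ratio was -0.03.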

How the data were processed

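RNA of 50 pooled stage 11 embryos per group was hybridized by the authors to Affymetrix GeneChip X. laevis Genome 2.0 arrays, 1 per group. The deposited values are MAS5 signal intensities on a linear scale, scaled per array by the authors, without present or absent calls. Here 160 AFFX and RPTR control probe sets were left out. Probe sets that reached a signal of 40 in GlyR+IVM or Control were kept, and log2 ratios to Control were taken with no added constant. A change means at least 2-fold, and GlyR-selective also means DN-KATP within 1.5-fold of Control. Gene symbols came from the platform's annotation, in which 15495 probe sets carry 1 symbol, 279 several and 16701 none. By rule, the named genes are the 15 largest GlyR-selective changes per direction whose lower signal was at least 10, list members past 2-fold, and genes changed at 2 probe sets. Genes just inside or outside the 2-fold threshold were named as well. List members named though under 2-fold, such as fezf2.L, zic1.S, pax6.L and gphn.L, were chosen after their values were seen. Members and lists were chosen with earlier results of these data known, and 4 lists after values were seen. With 1 array per group no test was made, the number of arrays limits the precision, and RNA depth has no count. Floors, folds, scalings, an added constant and cross-hybridizing probe sets were varied. The calculation was tested on simulated data. Python, numpy and pandas were used.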

Additional observations from a re-analysis of the deposited data

Results flagged for a closer look

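Of 64 reporter-gene probe sets, which were left out of every comparison, 1 had a signal of 59.6 in GlyR+IVM, 8.45 in DN-KATP and 12.25 in Control. Its signal in GlyR+IVM was above that in the Control array.

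Among named genes, 4 probe sets that reached 300 in 1 or more arrays differed from Control by at least 2-fold in opposite directions in the channel groups, and these differences were not tested. The amidohydrolase gene asrgl1.L had 1266 in GlyR+IVM, 281 in DN-KATP and 588 in Control, which gave a log2 ratio of 1.11 for GlyR+IVM and of -1.06 for DN-KATP. sbk1l.L, a kinase gene, had 29.4, 306 and 80.8, log2 ratios of -1.46 and 1.92. The sulfotransferase gene sult6b1.1.L had 653, 32.3 and 151, log2 ratios of 2.11 and -2.23. vopp1.S had 45.4, 834 and 110.1, log2 ratios of -1.28 and 2.92.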

How the results depend on the processing

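The reported counts were 1109 higher, 657 lower, 304 GlyR-selective higher and 342 GlyR-selective lower probe sets, and the alternatives are given in that order. Without a floor the counts were 3854, 2533, 871 and 1052, with a floor of 20 they were 2284, 1341, 536 and 653, and with a floor of 100 they were 475, 316, 144 and 143. A floor of 40 in both arrays gave 462, 285, 142 and 138. A 1.5-fold threshold gave 2795, 1990, 1249 and 1258, and a 3-fold threshold 375, 222, 52 and 97. With 32 added to each signal they were 379, 268, 140 and 134. Scaling to the hybridization spike-ins gave 301, 2052, 94 and 677, and scaling to the polyA spike-ins, chosen after seeing the data, gave 338, 1847, 79 and 859. The shares of higher probe sets among the 2-fold calls and among the GlyR-selective ones were then 12.8% and 12.19%, and 15.5% and 8.42%, against 62.8% and 47.1% as deposited. With quantile normalization they were 52.9% and 42.0%, and with a common median 55.6% and 44.2%, with each count within 1.5 times the reported one. A stricter limit for DN-KATP near Control left 154 and 209 GlyR-selective probe sets, and a limit of 2-fold gave 567 higher ones. Requiring also a 2-fold difference from DN-KATP left 160 higher ones. Without the probe sets open to cross-hybridization the counts were 980, 573, 263 and 297, which moved no count by 1.5 times. Of the 30 named top changes, all stayed at least 2-fold under the 4 rescalings and 10 went under 2-fold with 32 added. No paired analysis was possible because each group has 1 array. The cause of these shifts was not tested, and low signals limit the largest ratios.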
